A study of Mus musculus with 12 samples.

Results

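Proliferation in oligodendrocyte precursor cells (OPCs) was examined through 46 cell cycle and proliferation genes, chosen by symbol out of 55536 annotated genes and divided by phase. They comprise 5 G1 cyclins and kinases, 3 G1/S cyclins and kinase, 5 E2F factors, 9 replication licensing genes, 4 genes of DNA synthesis in S phase, 4 S/G2/M cyclins and kinase, and 16 genes of mitosis. All 46 passed the filter on low counts that left 18995 genes for testing, and the lowest count of any of them in any library was 74. The cells were primary mouse OPCs from pups of postnatal days 4 to 6, with 3 replicates in each of 4 groups. Ctr cells received neither agent. EZH2i cells received 1.5 μM EPZ011989, an inhibitor of the histone methyltransferase EZH2, for 4 days with renewal every 48 h. IFN-γ cells received 100 ng/ml of the cytokine for 6 h, and cells of the combined group (IFN-γ + EZH2i) received the 4 days of inhibitor and then IFN-γ for 6 h together with fresh inhibitor.
All groups shared the same source. Brains of several pups were pooled for each experiment, the replicates came from different litters, and the OPCs were isolated either by sorting for Sox10-driven GFP or with magnetic beads against CD140a. The sources do not say which method gave which library, and the GFP, switched on by Cre under Sox10, marks the whole oligodendrocyte lineage. The cells were grown in medium with PDGF-AA and bFGF, which drive OPC division, so every group was measured under mitogens. What the Ctr cells received in place of the agents is not given in the sources used here. The labels name EAE as the mouse model, while the culture protocol describes cells of untreated pups.

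In the cell cycle, D-type cyclins activate CDK4 and CDK6 in G1, and cyclin E with CDK2 carries the cell into S phase. These kinases phosphorylate the retinoblastoma family, which frees the activator E2Fs to switch on genes of licensing and DNA synthesis, while E2F7 and E2F8 repress the same genes later in the cycle. Genes of mitosis are held down by the DREAM complex through CHR elements and are switched on by B-MYB and FOXM1, often with NF-Y bound at CCAAT boxes. OPCs divide in the postnatal and adult brain, and they leave the cycle when they differentiate.

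Library totals lay between 17403896 and 66546017 counts, with the shallowest being Ctr replicate 2. Its deviations from the group mean also correlated at only 0.0134 to 0.0854 with those of replicate 2 of the other groups, against 0.411 to 0.642 for all other same-number pairs. Irf1, a gene induced by IFN-γ, was at 9.89 to 12.3 CPM (counts over a TMM-scaled library total) in the 6 libraries without IFN-γ and at 819 to 1113 CPM in the 6 with it. The 8 OPC markers summed to 4697 to 8804 CPM, the 9 markers of differentiating or mature oligodendrocytes to 1143 to 2564 CPM, the 6 astrocyte markers to 644 to 2137 CPM, and the 6 neuron markers to 16.1 to 62.6 CPM. Microglia markers summed to at most 1.64 CPM, fibroblast markers to at most 2.89 CPM, and endothelial or mural markers to at most 9.62 CPM. In bulk RNA, fewer cells in a phase and less RNA of its genes per cell cannot be told apart. Differences were tested with edgeR's quasi-likelihood test across the 18995 genes with Benjamini-Hochberg adjustment, a gene being called at an adjusted p under 0.05, and values are CPM as mean ± SD of 3 replicates unless stated.

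Per length, Ccnd1, Cdk4 and Ccnd2 of the G1 class were the most abundant of the 46, and the fifth G1 gene, Cdk6, was among the scarcer. Averaged over the 12 libraries, the TPM (the deposited unit that corrects for transcript length) was 585 for Ccnd1 (cyclin D1), 291 for Cdk4, 157 for Ccnd2 (cyclin D2) and 52.3 for Ccnd3 (cyclin D3), but only 3.62 for Cdk6, the second partner kinase of the D-type cyclins. The most abundant members of the other phases were Top2a, the topoisomerase that untangles DNA before chromosome segregation, at 74.2 TPM, Pcna, the clamp of the replicative polymerases, at 74.2 TPM, the helicase subunit gene Mcm7 at 54.4 TPM, and the mitotic kinase gene Cdk1 at 50.7 TPM. Ccne2 (cyclin E2) reached 15.7 TPM, but 57.1% of it lay in Ccne2-205, a processed transcript of 432 bases not annotated as coding. The coding Ccne2-202 held 31.1%. The E2F factors were the scarcest class, from 2.27 TPM for E2f2 to 6.92 TPM for E2f3. Mki67, which encodes the proliferation marker Ki-67, was detected in every library at 272 to 619 CPM.

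Many promoters of the members, though not those of every phase, carried elements that cell cycle genes are known for. RefSeq windows on GRCm38.p6, from 250 bases before to 50 bases after a start site, matched 37 of the 46 by symbol. No window was matched for Ccnd1, Ccnd2, Mcm4, Gmnn, Ccne2, Ccna2, Aurkb, Kif20a and Tpx2. On either strand, the CCAAT box (CCAAT) stood in 29 of the 37 (78.4%) against 41.1% of 27025 genes with a window, a CHR (TTTGAA or TTTAAA) in 22 (59.5%) against 30.6%, and an E2F element (TTTCCCGC, TTTGGCGC, TTTCGCGC or TTTGCCGC) in 11 (29.7%) against 2.61%. The E2F element was in 6 of 7 licensing windows and in 0 of 13 mitotic windows, and the CHR was in 2 of 7 and in 12 of 13. Of the 4 windows of DNA synthesis, 0 held the E2F element and 1 a CHR. Of the 3 G1 windows, 0 held either. A match is only a match of letters, and TTTAAA reads the same on both strands. The 250 bases before the start follow for Cdk6, Cdk2 and E2f8, on which the comparisons turn, and for Mcm6, Ccnb1 and Top2a as examples of licensing, S/G2/M and mitosis picked after the matches were seen, with every match in capitals.
Cdk6: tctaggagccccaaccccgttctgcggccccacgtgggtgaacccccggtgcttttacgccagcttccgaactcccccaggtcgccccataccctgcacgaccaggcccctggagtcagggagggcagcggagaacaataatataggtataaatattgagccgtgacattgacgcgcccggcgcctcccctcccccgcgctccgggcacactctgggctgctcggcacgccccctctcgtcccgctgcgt
Cdk2: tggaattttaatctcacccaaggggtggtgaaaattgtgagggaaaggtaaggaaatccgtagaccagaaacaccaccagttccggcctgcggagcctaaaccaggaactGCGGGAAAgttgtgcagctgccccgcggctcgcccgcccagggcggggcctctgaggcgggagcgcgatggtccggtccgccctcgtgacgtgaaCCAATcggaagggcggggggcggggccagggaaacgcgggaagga
E2f8: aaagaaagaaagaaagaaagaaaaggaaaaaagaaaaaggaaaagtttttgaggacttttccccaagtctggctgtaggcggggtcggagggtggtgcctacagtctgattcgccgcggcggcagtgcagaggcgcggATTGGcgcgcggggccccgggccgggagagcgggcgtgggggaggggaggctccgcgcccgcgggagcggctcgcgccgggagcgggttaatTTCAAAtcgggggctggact
Mcm6: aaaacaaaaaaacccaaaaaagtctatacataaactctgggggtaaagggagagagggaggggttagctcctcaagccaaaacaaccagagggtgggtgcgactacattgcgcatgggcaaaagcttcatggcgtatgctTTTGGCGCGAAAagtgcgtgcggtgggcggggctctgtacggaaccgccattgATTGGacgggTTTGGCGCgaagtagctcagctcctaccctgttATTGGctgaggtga
Ccnb1: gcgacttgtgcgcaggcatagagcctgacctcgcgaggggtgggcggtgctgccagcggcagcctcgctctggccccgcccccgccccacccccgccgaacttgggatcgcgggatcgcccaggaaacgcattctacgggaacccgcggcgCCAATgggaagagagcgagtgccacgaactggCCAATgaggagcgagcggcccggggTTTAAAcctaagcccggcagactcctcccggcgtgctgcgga
Top2a: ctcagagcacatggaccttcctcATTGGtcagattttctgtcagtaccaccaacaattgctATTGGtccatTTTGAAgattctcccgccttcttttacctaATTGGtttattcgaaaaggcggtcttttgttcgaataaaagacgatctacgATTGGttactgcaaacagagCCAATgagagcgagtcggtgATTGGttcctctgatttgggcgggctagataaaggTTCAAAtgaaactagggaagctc
These lie at chr5:3343643-3343892, plus strand (Cdk6), chr10:128705052-128705301, minus strand (Cdk2), chr7:48881597-48881846, minus strand (E2f8), chr1:128359706-128359955, minus strand (Mcm6), chr13:100786487-100786736, minus strand (Ccnb1), and chr11:99024190-99024439, minus strand (Top2a). The Cdk6 window held none of the 3 elements. It precedes the start of Cdk6-202 at 3343893, while the annotated gene begins upstream at 3341485, where no window was searched. Cdk2 held a CCAAT box and an E2F element, E2f8 a CCAAT box and a CHR close to the start, Mcm6 CCAAT boxes and E2F elements, some of them overlapping, and Ccnb1 and Top2a CCAAT boxes with CHRs. The window for E2f1 is not shown because RefSeq's start lay 294 bases inside the nearest annotated transcript, E2f1-201, so it covers transcribed sequence.

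**Figure D1:**
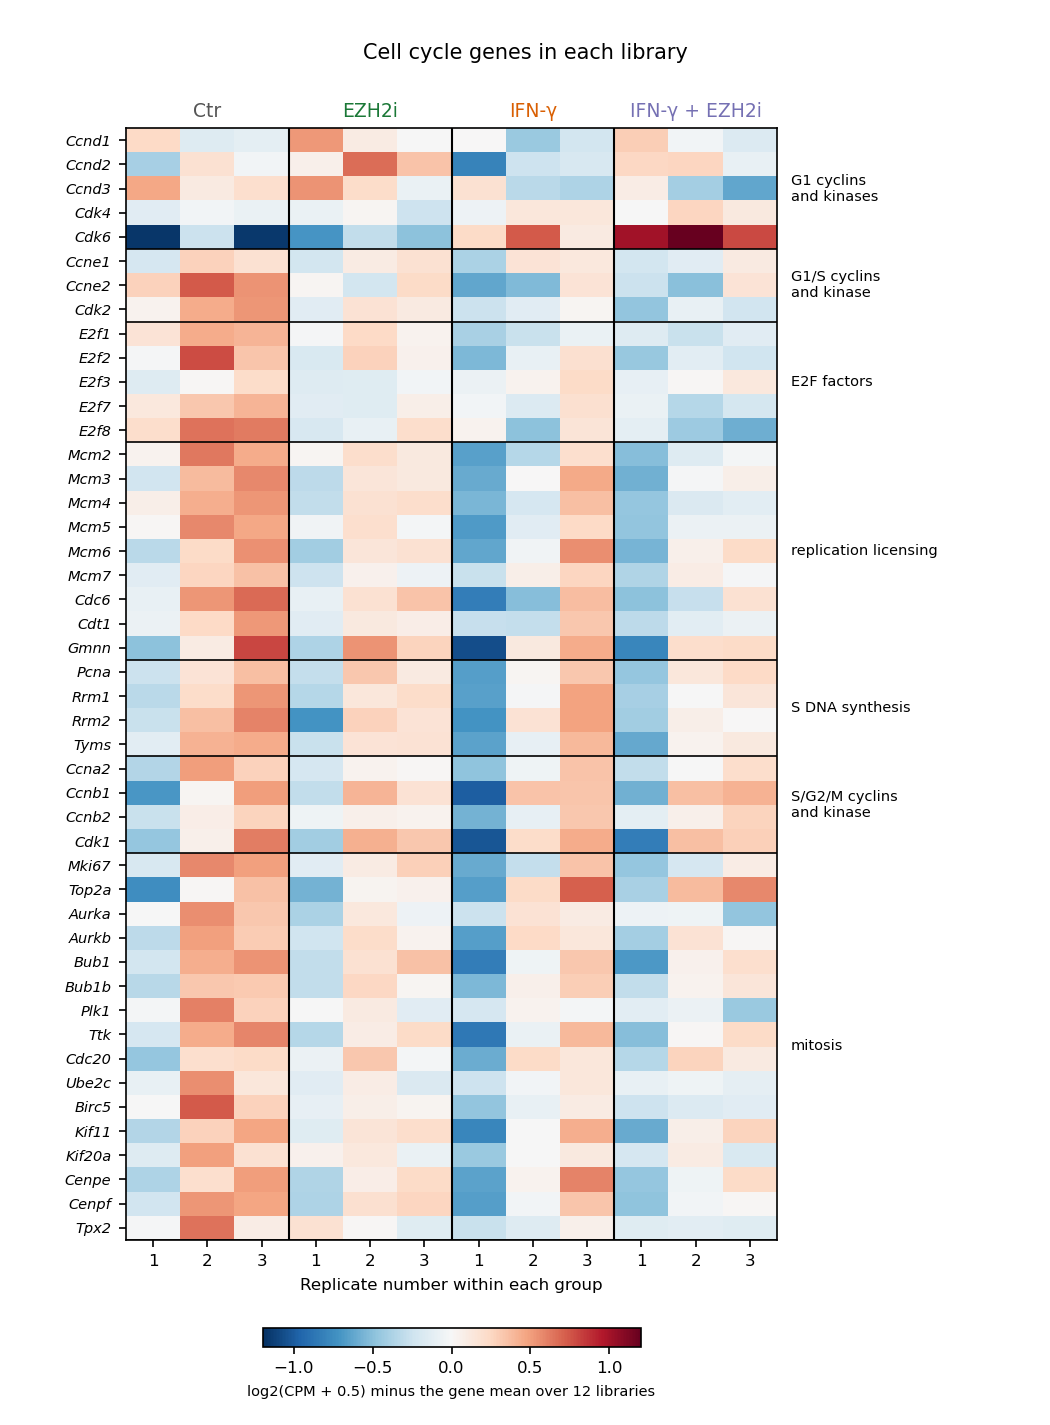
Level of the 46 cell cycle genes (rows, grouped by phase) in each of the 12 libraries (columns, by group and replicate number), as log2(CPM + 0.5) minus the mean of the gene over the libraries, red being higher and blue lower. Cdk6 is red in the 6 IFN-γ libraries only, while the rows from replication licensing downward are mostly blue in replicate 1 of every group.

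In the fit without a replicate block, IFN-γ for 6 h called 1 cell cycle gene higher, Cdk6, and 1 lower, E2f1. Against Ctr, IFN-γ alone called 1 of the 46 genes higher (Cdk6), where 6.65% of all genes tested were called higher, and 1 lower (E2f1), where 2.1% were. Fitted values leaned downward: 42 of the 46 had a log2 fold change below 0, where 49.9% of all genes did, with a median of -0.29 against 0.00 for all genes. An unadjusted p under 0.05 was reached by 1 higher and 10 lower, against 11.7% and 7.28% of genes. The libraries of the groups did not overlap for 1 higher and 4 lower (E2f1, E2f8, Ccne2 and Cdk2), against 13.5% and 9.52% of genes. DESeq2 called 1 higher and 3 lower, where it called 6.57% and 2.77% of genes. The count depended on the fit. With the replicate number as a block, 1 was higher and 16 lower, against 12.4% and 8.8% of genes. That fit called 3 higher and 20 lower averaged over the inhibitor, against 17.2% and 15.4%. Because Ctr replicate 2 deviated from the other replicates 2, pairing was not taken for comparisons with Ctr.

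Cdk6, on chromosome 5 from 3341485 to 3531008 of GRCm38, was at 11.0, 21.0 and 11.0 CPM in Ctr replicates 1 to 3 and at 29.5, 42.2 and 27.2 CPM in IFN-γ. With the inhibitor it was at 15.2, 20.4 and 17.8 CPM in EZH2i and at 50.9, 58.3 and 43.8 CPM in IFN-γ + EZH2i. All 6 libraries with IFN-γ thus lay above all 6 without it. The fold change was 2.32 against Ctr (log2 1.21, SE 0.26, adjusted p = 0.0114) and 2.86 against EZH2i (log2 1.52, SE 0.26, adjusted p = 0.00260), or 2.58 averaged over both (adjusted p = 0.000232). The averaged difference and that against EZH2i were called in all alternatives, with adjusted p at most 0.00105 and 0.0164. That against Ctr was lost, at an adjusted p of 0.0517, 0.0572 and 0.0561, without Ctr replicate 1, Ctr replicate 3 or IFN-γ replicate 2, and at 0.0532 in a fit of the 6 libraries alone. Without Ctr replicate 2 its log2 fold change was 1.57 (adjusted p = 0.00115). The 3 main coding transcripts each rose in mean TPM from Ctr to IFN-γ, Cdk6-202 from 0.729 to 1.92, Cdk6-201 from 0.434 to 1.35 and Cdk6-203 from 0.493 to 0.906, which is a description without a test.

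The other G1 genes did not follow Cdk6. Cdk4, the paralogous kinase, was at 285 ± 10.0 CPM in Ctr against 318 ± 24.5 CPM in IFN-γ, a log2 fold change of 0.16 (SE 0.11, adjusted p = 0.543). Ccnd1 was at 2299 ± 362 and 1989 ± 308 CPM, a log2 fold change of -0.21 (SE 0.19, adjusted p = 0.656). Ccnd2 was at 758 ± 150 and 604 ± 131 CPM, a log2 fold change of -0.33 (SE 0.21, adjusted p = 0.479). For Cdk4 and both cyclins the groups overlapped, and the differences were not called. Ccnd3 was at 151, 117 and 125 CPM in Ctr and at 124, 87.1 and 84.7 CPM in IFN-γ. In the libraries with inhibitor it was at 159, 128 and 104 CPM in EZH2i and at 116, 82.4 and 71.0 CPM in IFN-γ + EZH2i. Its groups overlapped in both comparisons, but in every replicate number the library with IFN-γ lay below its counterpart. The averaged log2 fold change was -0.47 (SE 0.16, adjusted p = 0.0590). Between IFN-γ + EZH2i and EZH2i, whose replicate numbers pair the libraries, Ccnd3 was not called in the fit without the block (log2 -0.53, adjusted p = 0.212) and was called lower with it (adjusted p = 0.00112).

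Of the G1/S class, Cdk2, the kinase of cyclin E, was at 29.2, 39.0 and 41.2 CPM in Ctr and at 23.6, 25.7 and 29.0 CPM in IFN-γ. In the inhibitor groups it was at 25.9, 32.1 and 30.6 CPM in EZH2i and at 20.4, 26.7 and 24.1 CPM in IFN-γ + EZH2i. The Ctr and IFN-γ libraries did not overlap, though the highest IFN-γ library lay just below the lowest Ctr library, and the inhibitor groups overlapped. Averaged over the inhibitor, Cdk2 fell by 0.40 on the log2 scale (SE 0.12, adjusted p = 0.0331), while neither comparison alone was called (adjusted p = 0.105 without and 0.369 with EZH2i, or 0.0307 with the replicate block in the latter). Over the alternatives the averaged adjusted p reached 0.0876 and the call was kept in 10 of 19, the losses including the fits without Ctr replicate 2 (0.0652), Ctr replicate 3 (0.0876), EZH2i replicate 2 (0.0865), EZH2i replicate 3 (0.0734), IFN-γ replicate 1 (0.0749), IFN-γ replicate 2 (0.0766) and IFN-γ + EZH2i replicate 1 (0.0528). Ccne2 was at 30.2, 41.8 and 36.4 CPM in Ctr and at 16.1, 17.1 and 28.0 CPM in IFN-γ, which did not overlap. Its log2 fold change of -0.82 (SE 0.24) was the lowest of the 46 in this comparison and was not called (adjusted p = 0.0575). Ccne1 (cyclin E1) stayed within 11.3 to 18.2 CPM in all 12 libraries, and its groups overlapped.

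E2f1, an activator E2F on chromosome 2 from 154559407 to 154569892, was at 11.6, 14.3 and 13.9 CPM in Ctr and at 7.81, 8.50 and 9.78 CPM in IFN-γ. It was at 10.2, 12.3 and 10.7 CPM in EZH2i and at 9.23, 8.54 and 9.39 CPM in IFN-γ + EZH2i. All 6 libraries with IFN-γ lay below all 6 without it. E2f1 fell by 0.61 on the log2 scale against Ctr (SE 0.15, adjusted p = 0.0265) and by 0.45 averaged over the inhibitor (SE 0.11, adjusted p = 0.0122), and the fitted log2 fold change against EZH2i was -0.29 (SE 0.15, adjusted p = 0.382). The averaged call was kept in all 19 alternatives, with an adjusted p of at most 0.0455. The call against Ctr was lost without Ctr replicate 2 (adjusted p = 0.0913), Ctr replicate 3 (0.0951), IFN-γ replicate 1 (0.102) or IFN-γ replicate 2 (0.0983). It was also lost with length-scaled TPM (adjusted p = 0.0503), with no filter (0.0992) and in a fit of the 6 libraries alone (0.0909), and was kept in 13 of 20 alternatives. By deposited TPM the lower level was in 1 of the 2 coding transcripts, E2f1-201, which was at 1.12 to 2.13 in the 6 libraries without IFN-γ and at 0.406 to 1.10 in the 6 with it. The other, E2f1-202, had group means of 1.78 to 1.87 without and 1.79 to 1.87 with IFN-γ. Salmon divides reads between such overlapping transcripts by estimation, and this split was not tested.

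Among the other E2F factors, the repressor gene E2f8 was at 15.7, 21.5 and 21.1 CPM in Ctr, at 11.8, 12.7 and 15.7 in EZH2i, at 13.9, 9.46 and 15.1 in IFN-γ, and at 12.4, 9.88 and 8.84 in IFN-γ + EZH2i. The Ctr libraries lay above those of every other group, EZH2i replicate 3 coming very close to the lowest of them. Averaged over the inhibitor, E2f8 fell by 0.48 on the log2 scale with IFN-γ (SE 0.15, adjusted p = 0.0494). This call stood just inside the threshold and was kept in 7 of 19 alternatives (adjusted p 0.0158 to 0.122). It was lost without Ctr replicate 2 (0.111) or 3 (0.108), without any of EZH2i replicates 1 (0.0538), 2 (0.0770) and 3 (0.122), without IFN-γ replicates 1 (0.0619) or 2 (0.106), and without IFN-γ + EZH2i replicates 2 (0.110) or 3 (0.105). E2f3, the most abundant E2F here, was at 45.2 ± 5.94 CPM in Ctr against 46.5 ± 4.99 CPM in IFN-γ, with an averaged log2 fold change of 0.09 (SE 0.09, adjusted p = 0.634).

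**Figure D2:**
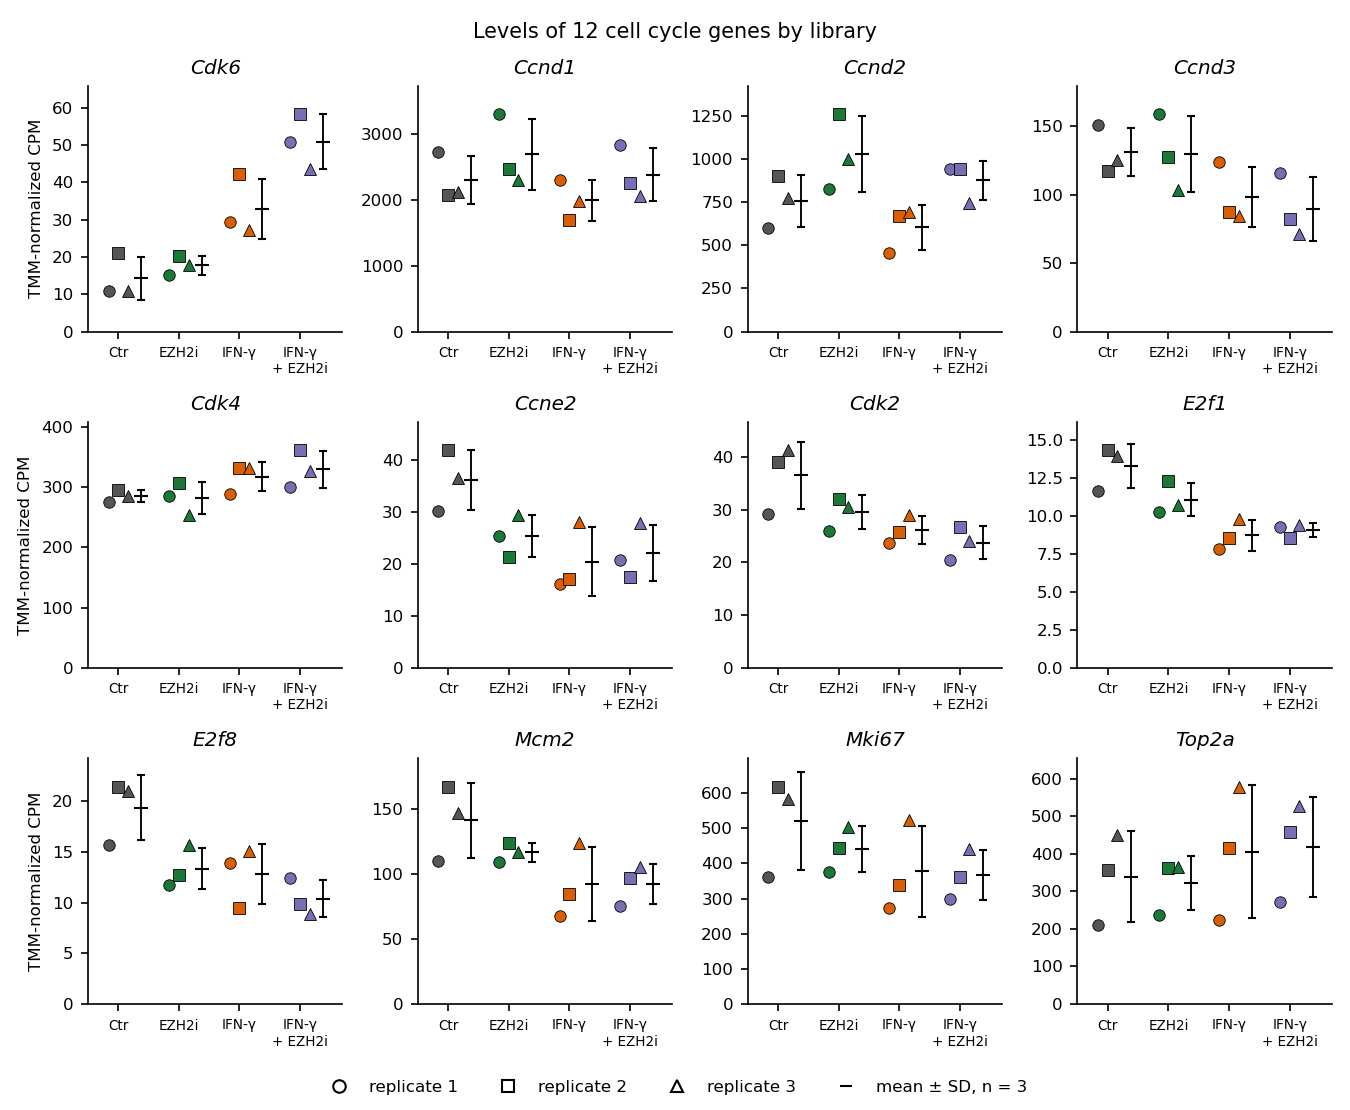
TMM-normalized CPM of 12 cell cycle genes in each library (circle, square and triangle for replicates 1, 2 and 3) by group, with the mean ± SD of 3 replicates as a bar beside the points and axes from 0. Cdk6 is higher and E2f1 lower in all 6 libraries with IFN-γ than in the 6 without it, whereas Mki67 and Top2a spread more within groups than between them.

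Licensing genes encode subunits of the MCM helicase, its loaders (Cdc6 and Cdt1) and an inhibitor of Cdt1 (Gmnn). They were lower in the fit without the block but not called. All 9 had log2 fold changes below 0 with IFN-γ against Ctr, from -0.65 to -0.14, and 0 of 9 were called. Mcm2, a helicase subunit gene, was at 110, 167 and 147 CPM in Ctr and at 68.0, 84.9 and 124 CPM in IFN-γ. The groups overlapped because IFN-γ replicate 3 lay above Ctr replicate 1, and the log2 fold change of -0.62 was not called (SE 0.22, adjusted p = 0.124). The 4 genes of DNA synthesis lay between -0.33 and -0.16 with SEs of 0.27 to 0.33. Pcna was at 104, 139 and 159 CPM in Ctr and at 78.4, 126 and 156 CPM in IFN-γ, so each IFN-γ library lay below the Ctr library of its number while the groups overlapped widely (adjusted p = 0.835). The 4 S/G2/M cyclins and kinase lay between -0.21 and -0.01, and Cdk1 was at 61.2 ± 22.7 CPM in Ctr against 55.9 ± 25.5 CPM in IFN-γ.
Of the 16 genes of mitosis, 15 were below 0 and 0 were called in the fit without the block. Some were called lower under an alternative fit, such as Bub1 and Birc5, each in 1 of 20 (adjusted p = 0.0102 and 0.0186). Mki67 was at 362, 619 and 584 CPM in Ctr and at 272, 338 and 523 CPM in IFN-γ, a log2 fold change of -0.46 (SE 0.26, adjusted p = 0.386). Top2a was the exception, at 210, 356 and 450 CPM in Ctr and at 224, 415 and 579 CPM in IFN-γ, a log2 fold change of 0.26 (SE 0.36, adjusted p = 0.792). The sign for Top2a depended on 1 library, since without IFN-γ replicate 3 its log2 fold change was -0.09.

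In the presence of EZH2i, IFN-γ called 1 of the 46 higher (Cdk6, where 5.9% of genes were called higher) and 0 lower by edgeR (where 2.17% were). An unadjusted p under 0.05 was reached by 1 higher and 1 lower (10.3% and 7.36% of genes), and DESeq2 called 1 higher and 0 lower (5.83% and 2.88% of genes). Groups did not overlap for 1 higher and 4 lower (E2f1, Mcm2, Mcm5 and Birc5), against 11.8% and 9.66% of genes. With the replicate block, which applies to this pair of groups, 1 was higher (Cdk6, where 11% of genes were) and 2 lower (Ccnd3 and Cdk2, where 8.3% were). The median log2 fold change was -0.13, with 39 of 46 below 0 where 49.8% of all genes were. Averaged over the inhibitor, 1 was higher, where 10% of genes were called, and 3 lower (E2f1, Cdk2 and E2f8), where 6.03% were, with 41 of 46 below 0 (50.2% of genes) and a median of -0.21. Of the 46, 2 higher and 13 lower had an unadjusted p below 0.05 (14.9% and 12% of genes), and DESeq2 called 1 and 6 (9.3% and 6.19%). The count for IFN-γ against Ctr depended on single libraries. It was 1 higher and 0 lower without Ctr replicate 2 (median -0.19) or IFN-γ replicate 1, 0 without Ctr replicate 3 or IFN-γ replicate 2, and 1 higher and 4 lower without IFN-γ replicate 3.
Part of the OPC marker list was also lower in the libraries with IFN-γ. Pdgfra, the PDGF receptor that OPCs use, spanned 536 to 934 CPM with IFN-γ alone, against 1294 to 1917 CPM for Ctr. Averaged over the inhibitor, 4 of the 8 OPC markers were called lower, where 6.03% of all genes were. Summed, the list reached 5553 to 7464 CPM with IFN-γ alone, against 8518 to 8804 CPM for Ctr. Not every marker shifted beyond its spread. Sox10 averaged 485 ± 350 CPM with IFN-γ alone against 459 ± 162 CPM for Ctr, and Ptprz1 2171 ± 265 against 2222 ± 164 CPM. The part of this shift in the levels of the cell cycle genes was not tested.

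**Figure D3:**
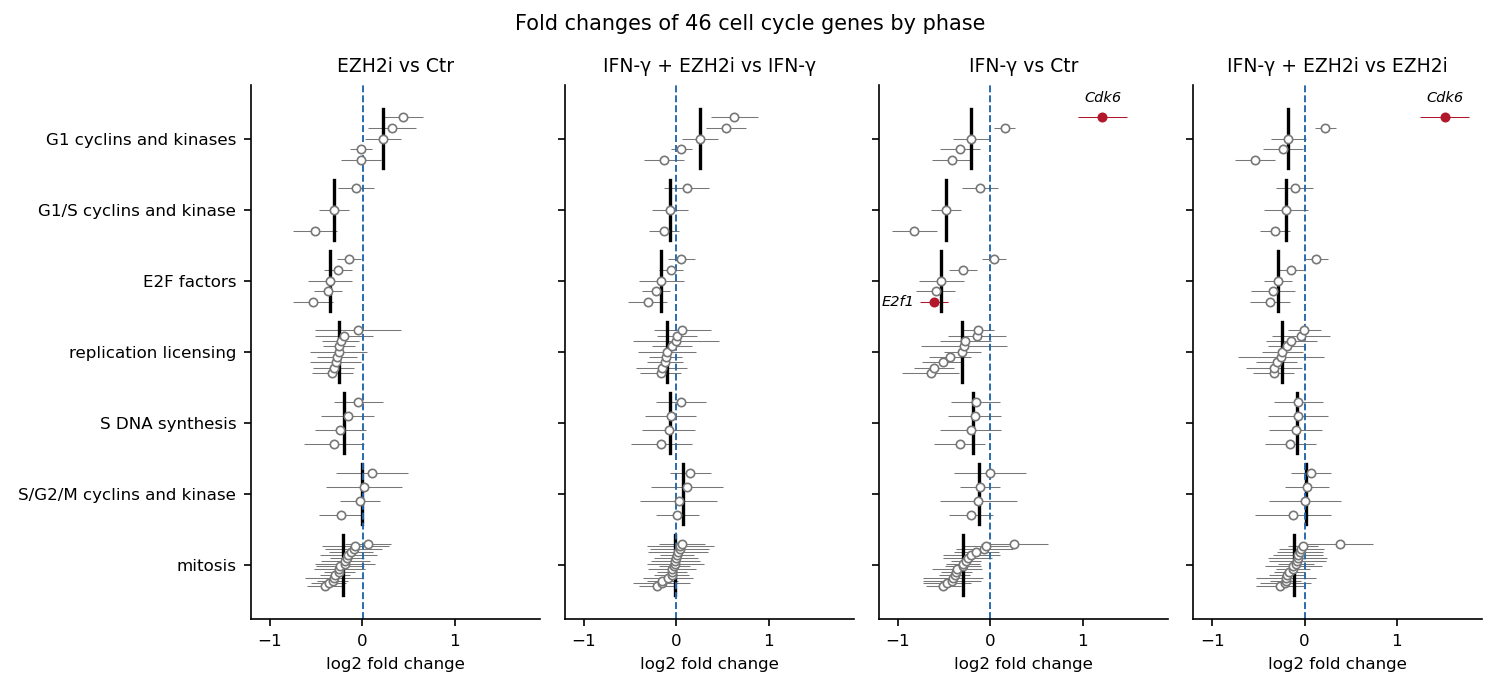
Fitted log2 fold change of each of the 46 genes (circles, with bars of 1 SE) by phase in the 4 comparisons of 2 groups. Filled red circles are named and passed an adjusted p of 0.05, black lines are the median of the phase, and the dashed blue line is the median of all genes tested, which lies near 0.

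Inhibition of EZH2 for 4 days gave 0 calls among the 46 genes in the fits without the block. With the block, fitted on all 12 libraries, 1 gene, Cdk6, was called between the 2 groups with IFN-γ. Fitted values leaned upward for Ccnd1 and Ccnd2 and downward for most of the 46. Averaged over IFN-γ, the E2F factors had the lowest median of the phases. Against Ctr, edgeR called 0 of the 46 in either direction, where 0.405% of genes were called higher and 0 lower, and DESeq2 also called 0, against 1.26% and 0.0529% of genes. An unadjusted p under 0.05 was reached by 0 higher and 2 lower, E2f7 and E2f8, against 5.19% and 1.86% of genes. In 3 of the 46, E2f7, E2f8 and Ccne2, all EZH2i libraries lay below all Ctr libraries, where 5.34% of genes did so, and 0 lay above, where 7.37% did. The log2 fold change was below 0 in 40 of the 46, where 48.9% of all genes were, with a median of -0.23. Here too the Ctr libraries mattered, since the median was -0.12 without Ctr replicate 2, and at an unadjusted p under 0.05 that fit had 2 higher and 0 lower.

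Ccnd1 was at 2716, 2063 and 2119 CPM in Ctr and at 3294, 2469 and 2291 CPM in EZH2i. With IFN-γ it was at 2304, 1689 and 1974 CPM, and at 2828, 2253 and 2057 CPM with both agents. In each of the 3 replicate numbers the inhibitor library was the higher one on both backgrounds, yet the groups overlapped in both. The averaged log2 fold change was 0.24 (SE 0.14, adjusted p = 0.546). Ccnd2 was at 601, 900 and 773 CPM in Ctr and at 827, 1260 and 1001.4 CPM in EZH2i. With IFN-γ it was at 453, 667 and 692 CPM, and at 940, 944 and 746 CPM with both agents, a non-overlapping pair. Its averaged log2 fold change of 0.49 (SE 0.15) was the largest of the 46 in this contrast and was not called (unadjusted p = 0.00721, adjusted p = 0.153). Ccnd3 and Cdk4 had averaged values of -0.07 and 0.02.
Cdk6 was at 17.8 ± 2.58 CPM in EZH2i against 14.3 ± 5.80 CPM in Ctr, overlapping groups with a log2 fold change of 0.33 (SE 0.26, adjusted p = 0.947). With IFN-γ on both sides, its level was 51.0 ± 7.28 CPM with the inhibitor and 33.0 ± 8.11 CPM without, and the lowest library with the inhibitor (43.8 CPM) lay above the highest without it (42.2 CPM). This difference of 0.63 on the log2 scale (SE 0.26) was not called in the fit without the block (adjusted p = 0.665) and was called with the replicate block (adjusted p = 0.0182), where the numbers pair the libraries. It was 1 of the 46, where 3.11% of genes were called higher and 0.827% lower with the block.

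Among the E2F factors, E2f8 had an averaged log2 fold change of -0.42 (SE 0.15, adjusted p = 0.241). E2f7, the other repressor E2F, was at 13.4, 15.4 and 16.4 CPM in Ctr and at 11.0, 11.0 and 12.8 CPM in EZH2i, which did not overlap. With IFN-γ it was at 11.9, 10.9 and 14.0 CPM, and at 11.5, 9.51 and 10.5 CPM with both agents, which did. Its averaged log2 fold change was -0.30 (SE 0.11, adjusted p = 0.250). Aurka, the Aurora A kinase of the spindle poles, had the lowest averaged value of the mitotic genes at -0.30 (SE 0.14, adjusted p = 0.398). Mcm4 had that of the licensing genes at -0.24 (SE 0.16, adjusted p = 0.633), and Rrm2, a subunit of ribonucleotide reductase, that of DNA synthesis at -0.23 (SE 0.23, adjusted p = 0.786). Cdk2 stood at -0.22 (SE 0.12, adjusted p = 0.493). The markers of proliferation moved by less than their spread, with Mki67 at 521 ± 139 CPM in Ctr against 441 ± 64.9 CPM in EZH2i and Top2a at 339 ± 121 and 322 ± 72.5 CPM. Within the S/G2/M class, Ccnb1 (cyclin B1) had the largest averaged value at 0.11, and its libraries ran from 41.2 to 116 CPM. The averaged values of Pcna (0.01), Cdk1 (0.02), Cdk4 (0.02), Top2a (-0.01) and Ccnb1 all changed sign when single libraries were left out.

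In IFN-γ + EZH2i against IFN-γ, edgeR without the block called 0 of the 46, where 0.347% of genes were called higher and 0.00526% lower, and DESeq2 called 0, against 1.03% and 0.0816% of genes. An unadjusted p under 0.05 was reached by 2 higher, Ccnd2 and Cdk6, and 0 lower, where 4.33% and 2.1% of genes were, and the same 2 were those whose libraries did not overlap, where 6.08% of genes lay higher and 4.26% lower without overlap. The median log2 fold change was -0.03, with 28 of 46 below 0 where 50.9% of all genes were, and it was -0.23 without IFN-γ replicate 1 and 0.18 without IFN-γ replicate 3. Averaged over IFN-γ, 0 were called, where 2.03% of genes were called higher and 0.19% lower, and DESeq2 called 0 (3.09% and 0.613%). Of the 46, 2 higher and 3 lower had an unadjusted p under 0.05 (7.69% and 4.65% of genes), and 37 were below 0 (50.1% of genes). The medians by phase were 0.24 for the G1 genes, -0.20 for G1/S, -0.26 for the E2F factors, -0.18 for licensing, -0.13 for DNA synthesis, 0.04 for S/G2/M and -0.14 for mitosis.
The inhibitor libraries also differed in markers of other cells, whose part in these values was not tested. The oligodendrocyte markers summed to 2034 to 2564 CPM in Ctr and to 1193 to 1749 CPM in EZH2i. In the averaged contrast 2 of the 8 tested were called lower, where 0.19% of all genes were. The astrocyte markers summed to 810 to 1432 CPM in Ctr and to 1112 to 2037 CPM in EZH2i, with 0 of 6 called. The neuron markers summed to 16.1 to 19.4 CPM and 31.0 to 49.4 CPM, with 3 of 6 called higher, where 2.03% of all genes were.

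No interaction between the agents was called for a cell cycle gene. The interaction was called for 0 of the 46 and for 0 genes in all, by edgeR and by DESeq2, and at an unadjusted p under 0.05 for 0 of the 46, where 0.316% of genes were above and 0.353% below 0 at that p. The interaction was above 0 for 43 of the 46, where 47% of all genes were, with a median of 0.15. That lean was weaker without Ctr replicate 2 (36 above 0, median 0.07). The lowest and highest values were -0.12 for Ccnd3 and 0.62 for Ccne2 (SE 0.34, adjusted p = 1). Cdk6 had an interaction of 0.30 (SE 0.37, adjusted p = 1), which without Ctr replicate 2 was -0.065. As the 4 comparisons share groups of libraries, their calls were not set against each other.

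Genes of the later phases also differed by replicate number. In 31 of the 46 genes (67.4%), replicate 1 was the lowest of its group in all 4 groups, where this held for 12.4% of all genes tested. The means of the 3 replicate numbers spanned a median of 0.53 on the log2 scale in the 46 genes, and the means of the 4 groups 0.40, against 0.35 and 0.37 over all genes tested. The wider span was that of the replicate numbers in 27 of the 46 (58.7%), where it was so in 46.3% of genes. Ccnb1 is an example, at 50.4, 83.5 and 116 CPM in Ctr and at 41.2, 104 and 103 CPM in IFN-γ. Cdk1 was at 40.2, 58.0 and 85.3 CPM in Ctr, at 41.6, 75 and 69.7 CPM in EZH2i, at 27.1, 65.0 and 75.7 CPM in IFN-γ, and at 31.1, 71.6 and 68.0 CPM in IFN-γ + EZH2i.
Summed over the 41 genes other than the G1 class, the level was 2613, 4024 and 4168 CPM in Ctr replicates 1 to 3 and 2624, 3421 and 3377 CPM in EZH2i. With IFN-γ the sums were 2073, 3051 and 4012 CPM, and with both agents 2324, 3171 and 3413 CPM. All 4 genes of DNA synthesis and all 4 of S/G2/M were lowest in replicate 1 in each group, and so were 16, 12, 16 and 12 of the 16 genes of mitosis in Ctr, EZH2i, IFN-γ and IFN-γ + EZH2i. The G1 class ran differently: its sum was highest in replicate 1 in every group, at 3753, 4582, 3200 and 4236 CPM, and it was made up mostly of Ccnd1. In TPM the sum was highest in replicate 1 in the 3 treated groups but lowest there in Ctr, at 821, 1066 and 988 TPM in replicates 1 to 3. Other measures also moved with the number. Replicate 3 had the largest library total and the highest sum of astrocyte markers (1432, 2037, 1625 and 2137 CPM) in each group, and their part in the pattern was not tested.

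**Figure D4:**
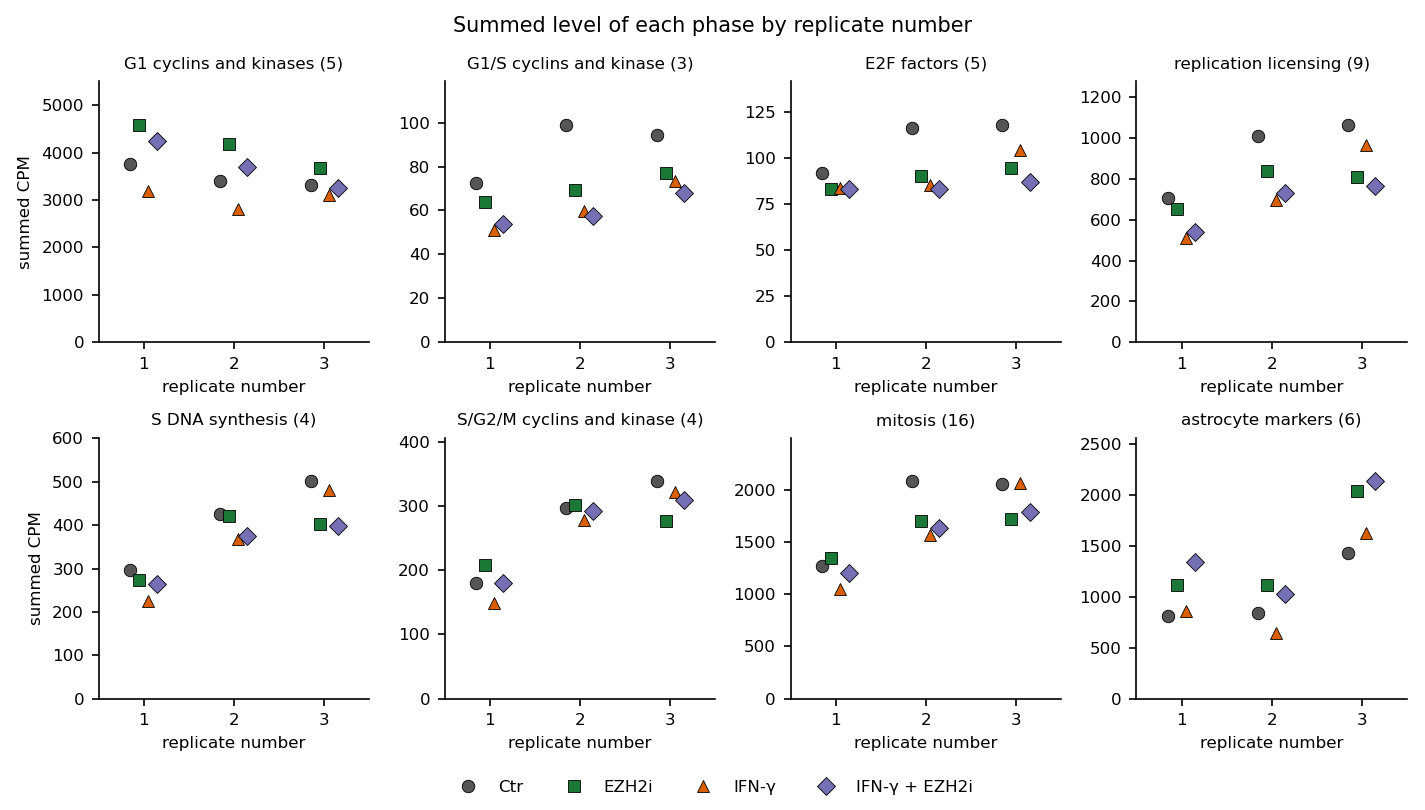
Summed CPM of the genes of each phase (number of genes in brackets) and of 6 astrocyte markers, by replicate number, with 1 symbol for each group and axes from 0. Replicate 1 holds the lowest sum from the replication licensing genes to the genes of mitosis in all 4 groups.

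Genes around these pathways were followed in lists of their own. The CDK inhibitors are the brakes on the kinases above. Cdkn2a, which encodes p16 and p19ARF, was at 11.7, 11.0 and 7.87 CPM in Ctr, at 26.3, 38.5 and 18.3 CPM in EZH2i, at 9.01, 13 and 8.02 CPM in IFN-γ, and at 38.8, 39.0 and 22.3 CPM in IFN-γ + EZH2i. All 6 libraries with the inhibitor lay above all 6 without it, and Cdkn2a rose by 1.59 on the log2 scale averaged over IFN-γ (SE 0.22, adjusted p = 0.00274). Cdkn2b, its neighbour encoding p15, also rose, by 0.81 (SE 0.19, adjusted p = 0.0464), though this was called in 7 of 19 alternatives and lost, at an adjusted p of up to 0.118, without any library but EZH2i replicate 3 and IFN-γ replicate 1. These 2 were the calls among the 8 inhibitors, where 2.03% of all genes were called higher.
Of 10 genes listed as p53 targets, 2 rose in the same contrast, where 2.03% of all genes were called higher. They were Ccng1 (cyclin G1), by 0.64 (SE 0.08, adjusted p = 0.00226), and Btg2, an antiproliferative gene, by 0.91 (SE 0.18, adjusted p = 0.0212). Btg2 was lost, at an adjusted p of up to 0.0622, without Ctr replicate 2 or 3, EZH2i replicate 1 or 2, or IFN-γ + EZH2i replicate 2. Cdkn1a, the best known of them, encodes p21 and was not called, with an averaged log2 fold change of 0.44 (SE 0.24, adjusted p = 0.532) and 56.2 to 88.4 CPM in Ctr against 73.0 to 115 CPM in EZH2i.
The fuller lists of replication and mitotic genes held 30 other S phase genes and 35 other G2/M genes. With EZH2i averaged over IFN-γ, edgeR called 0 of either list, where 2.03% of all genes were called higher and 0.19% lower. The medians were -0.13 and -0.11. An unadjusted p under 0.05 was reached by 4 and 2 in either direction, where 7.69% of genes were higher and 4.65% lower at that p. Foxm1, the activator of mitotic genes, had an averaged log2 fold change of -0.36 (SE 0.13, adjusted p = 0.238) and Myc one of -0.78 (SE 0.26, adjusted p = 0.184). With IFN-γ averaged over EZH2i, 2 genes of each list were called lower, shares near the 6.03% of all genes called lower there. Of the 30, those were Pold1, the catalytic subunit of DNA polymerase delta, which fell by 0.47 (SE 0.09, adjusted p = 0.00324) and Uhrf1, a maintenance factor of DNA methylation, by 0.66 (SE 0.20, adjusted p = 0.0386). Of the 35, those were the phosphatase gene Cdc25b, which fell by 0.54 (SE 0.12, adjusted p = 0.00865) and Ckap2l by 0.43 (SE 0.12, adjusted p = 0.0286). Uhrf1 was called in 9 of 19 alternatives (adjusted p up to 0.157) and Ckap2l in 11 of 19 (up to 0.0812). Both calls were lost without Ctr replicate 2 or 3, EZH2i replicate 2 or 3, IFN-γ replicate 1 or 2, or IFN-γ + EZH2i replicate 2, that of Uhrf1 also without IFN-γ + EZH2i replicate 1 or 3, and that of Ckap2l also without EZH2i replicate 1.
Rbl2, which encodes the pocket protein p130 of the DREAM complex, was the 1 call among 13 genes of that list, where 6.03% of all genes were called lower. It was at 50.0, 53.2 and 50.0 CPM in Ctr, at 36.3, 38.2 and 38.9 CPM in IFN-γ, and at 45.9, 46.4 and 48.0 CPM in EZH2i against 30.6, 33.1 and 34.1 CPM in IFN-γ + EZH2i. It fell by 0.48 on the log2 scale with IFN-γ (SE 0.07, adjusted p = 0.000371), and all 6 libraries with IFN-γ lay below all 6 without it. With length-scaled TPM the call was lost (adjusted p = 0.0608). Rb1 itself was at 35.9 to 40.4 CPM in Ctr against 27.9 to 39.4 CPM in IFN-γ and was not called (adjusted p = 0.868).
Of the 13 mitogen response genes, 4 fell with IFN-γ, where 6.03% of all genes were called lower and 10% higher. These 4 are targets or feedback inhibitors of receptor tyrosine kinase signaling, but the list did not fall as a whole. Etv4 fell by 0.95 on the log2 scale (SE 0.13, adjusted p = 0.000280), Spry4 by 0.74 (SE 0.19, adjusted p = 0.0180), Etv5 by 0.56 (SE 0.14, adjusted p = 0.0137) and Dusp6 by 0.33 (SE 0.08, adjusted p = 0.0125). Spry4 was lost without IFN-γ replicate 2 (adjusted p = 0.0518), and with length-scaled TPM Dusp6 was lost (adjusted p = 0.223). In the same list Jun, an AP-1 gene, rose by 0.98 (SE 0.12, adjusted p = 0.000112), and among the genes listed as p53 targets Gadd45b, a stress gene, rose by 1.84 (SE 0.14, adjusted p = 1.58e-06). Myc was not called, at 66.1 to 118 CPM in Ctr against 69.6 to 151 CPM in IFN-γ.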

How the data were processed

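Bulk RNA-seq of 12 libraries was analysed. The authors trimmed the reads and quantified transcripts with Salmon 0.8.2. The estimated count is deposited without normalization, and TPM as scaled by the authors for effective length and library. Fold changes, p-values and pooled means in 2 deposited result tables were left out. For each of 55536 genes (GENCODE, GRCm38), the estimated counts of its transcripts were added up and rounded. Groups and replicate numbers follow the labels.

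Analyses used R 4.3.3. Counts were tested with edgeR 4.0.16 (TMM factors, quasi-likelihood test, 1 fit of 12 libraries with the group as term, default filter on low counts) and Benjamini-Hochberg adjusted over 18995 genes. The fit was checked on simulated data, after an exploratory fit of the real counts. Between IFN-γ + EZH2i and IFN-γ, same-number libraries deviated together (correlations 0.604, 0.493 and 0.642), and likewise against EZH2i (0.530, 0.496 and 0.621), so the block was printed there. With Ctr the lowest was 0.0134. The blocked fit used all 12 libraries, so its p-values for the paired groups also draw on the Ctr libraries. P-values of the fits without the block measure the spread between cultures of different litters. Those with the block measure the spread left after differences between replicate numbers are taken out. Genes with near-identical pseudogene copies, such as Pcna, Ccnb1 and Ccnd3, are counted less certainly.

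The members and lists were chosen with earlier results of these data known. Members were named if called in a fit without the block or, for paired groups, with it. Per phase, the most abundant by TPM and the one furthest from 0 with EZH2i were also named, with a set always named (Mki67, Top2a, Ccnd1, Ccnd2, Cdk1, Cdk4, Mcm2, Pcna, E2f1, Ccne1). Members named outside this rule (Ccnd3 against Ctr, E2f2, E2f7, Mcm5, Mcm6 and Birc5) and the 12 genes plotted by library were chosen after their values were seen. The fits were repeated with DESeq2 1.42.0, with RLE factors, without a filter, with at least 10 counts in every library, the replicate block, length-scaled TPM, only the libraries of a comparison, mitochondrial and rRNA genes left out, and each library left out in turn. A result that needs an item withheld for evaluation is not reported here.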

Additional observations from a re-analysis of the deposited data

How the results depend on the processing

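Leaving out 1 library moved the median log2 fold change of the 46 genes by much of its size. It ran from -0.38 to -0.11 for EZH2i against Ctr, from -0.23 to 0.18 (a turned sign) for IFN-γ + EZH2i against IFN-γ, from -0.46 to -0.14 for IFN-γ against Ctr, from -0.23 to -0.01 for IFN-γ + EZH2i against EZH2i, from -0.22 to -0.01 for EZH2i averaged, from -0.29 to -0.12 for IFN-γ averaged and from 0.01 to 0.36 for the interaction. The SD of library medians within groups was 0.32. The count of members called was 0 for IFN-γ + EZH2i against IFN-γ and 1 with the replicate block. For IFN-γ against Ctr it was 2, but 4 with DESeq2, 1 with length-scaled TPM, 1 with no filter, 0 with only the 6 libraries, 17 with the block (1 higher and 16 lower, against 12.4% and 8.8% of all genes) and 0 to 5 with a library left out. It was 1 for IFN-γ + EZH2i against EZH2i and 3 with the block, and 0 for EZH2i averaged over IFN-γ and 5 with the block (3 higher and 2 lower, against 7.71% and 4.49%). For IFN-γ averaged over EZH2i it was 4, but 7 with DESeq2 and 23 with the block (3 higher and 20 lower, against 17.2% and 15.4%). With a library left out it ran from 2 (Ctr replicate 2, Ctr replicate 3, EZH2i replicate 2 or IFN-γ replicate 2) to 7 (Ctr replicate 1) and 9 (IFN-γ replicate 3). The correlations of Ctr replicate 2 fell short of 0.1, so pairing was not taken for comparisons with Ctr. Their blocked counts stand here, and those with IFN-γ also in the report. A library correlated best with its own number in 15 of 18 cases that involve Ctr and in 18 of 18 others. Among the 46 genes in the 2 paired comparisons, the block changed no call except those of Cdk6, Ccnd3 and Cdk2 given in the report. The cause of these shifts was not tested.

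The printed genes were recomputed in 105 pairs of gene and contrast. In 18 of them the sign reversed under some alternative, 60 values in all, with 0 of the pairs called as reported and 0 of the reversed values called. Leaving out single libraries, the log2 fold change ran with EZH2i averaged over IFN-γ from -0.0517 to 0.2689 for Ccnb1, from -0.1914 to 0.0241 for Ccnd3, from -0.1503 to -0.0146 for Ccne1, from -0.1429 to 0.1824 for Cdk1, from -0.0159 to 0.0549 for Cdk4, from -0.2416 to 0.0117 for Mki67, from -0.1107 to 0.1204 for Pcna, from -0.0495 to 0.0719 for Rb1, from -0.1614 to 0.1582 for Top2a. It ran with IFN-γ averaged over EZH2i from -0.1399 to 0.1636 for Ccnb1, from -0.2678 to 0.0381 for Cdk1, from -0.225 to 0.1519 for Myc, from -0.2271 to 0.0041 for Pcna, from -0.113 to 0.0277 for Rb1. It ran for the interaction from -0.3501 to 0.0774 for Ccnd3, from -0.065 to 0.5212 for Cdk6. It ran with IFN-γ against Ctr from -0.3885 to 0.0739 for Pcna, from -0.0851 to 0.5544 for Top2a. Outside the leave-out fits, length-scaled TPM gave -0.0486 for Cdk1, -0.0054 for Cdk4 and 0.0173 for Ccne1 with EZH2i and 0.0603 for Rb1 with IFN-γ. The block gave 0.031 for Top2a with EZH2i, and -0.0424 for Ccnb1 and -0.0624 for Myc with IFN-γ. For Ccnb1 with IFN-γ, DESeq2 gave -0.0087, RLE factors -0.01 and the fit without mitochondrial and rRNA genes -0.0052. With 3 replicates a group, differences of the size of these SEs cannot be resolved.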
